A study of Mus musculus with 2 samples.

Results

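Genes of fibroblast growth factor (FGF) signalling were examined for DNase I hypersensitive sites, which are stretches of open chromatin that the nuclease DNase I cuts readily, in newborn mouse kidney. The list was made by name and held 37 genes: 22 ligands, 5 receptors, 8 feedback inhibitors (the Sprouty, Spred and Dusp6 genes) and 2 receptor adaptors. Of these, 36 could be measured, out of 21938 protein-coding genes on chromosomes that the peak lists cover. Spry3, the remaining inhibitor, is annotated in GENCODE M21 only on an unplaced scaffold and was not analysed here. The samples were 2 biological replicates of whole kidney from B6NCrl mice aged 0 days, with no treatment or genetic change named in the labels and no second group. Both replicates carry the same donor record, the sex is given as not collected, and the sources used here do not state how many animals went into each. The kidney is a mixture of cell types, so a weak site in all cells and a strong site in a few cells cannot be told apart. With 1 group there is no comparison of conditions and no test. Each value is printed for replicate 1 and then replicate 2, and the spread between replicates is the error.

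Most FGF ligands are secreted proteins that bind receptor tyrosine kinases, the paracrine ones together with heparan sulfate. The receptors pass the signal through the adaptors Frs2 and Frs3 to the Ras-ERK kinase cascade. The 22 genes counted here as ligands include 4 intracellular members, Fgf11, Fgf12, Fgf13 and Fgf14, which are not secreted. Sprouty genes and the phosphatase gene Dusp6 are switched on by the pathway and their products dampen it, which makes them feedback inhibitors, and the Spred proteins are related inhibitors. In the developing kidney, Fgf9 and Fgf20 maintain nephron progenitors, Fgf8 is needed for nephron formation, Fgf7 and Fgf10 act on the branching ureteric epithelium, and Spry1 limits ureteric budding.

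The lists held 266133 and 257133 peaks, which merged into 197749 sites with a peak in both replicates. A promoter peak is the strongest peak within 1 kb of any annotated transcription start site of a gene, and its signal is the deposited peak height, whose scaling is not stated. A distal site is a shared site whose centre lies more than 1 kb from the start of any gene. Of 14 marker genes of kidney cell types, 12 had a promoter peak in each list, beside 71.8% of all protein-coding genes. The other 2, Slc12a1 and Aqp2, had a peak in replicate 2 alone. The median signal of the 12 was 62.3 and 63.8, and 1 of them was above the median of all genes with a promoter peak in both replicates. Kidney markers were thus mostly low on this measure too. Of 8 markers of other tissues, 2 had a promoter peak in each list, among them the blood gene Spi1 at 14.0 and 11.8. The replicates differed by a median log2 ratio of 0.12 (replicate 2 over replicate 1) over all genes with a promoter peak in both. Relative to that median, the members ranged from -0.70 (Fgf6) to 0.30 (Fgf4).

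The sequences of 3 promoter peaks are shown because they span the range of promoter signal between the inhibitors and a ligand. All are from mm10, plus strand, and were chosen after their values were seen. The Dusp6 peak is at chr10:99263081-99263230, next to the annotated start. The Spry2 peak is at chr14:105897301-105897450, with its centre 556 bp upstream of the start. The Fgf12 peak is at chr16:28753221-28753370, centred 227 bp upstream. Capitals mark the CCAAT box in its 7-letter form AGCCAAT, searched on both strands (Dusp6 and Spry2), and the WT1 consensus CTCCCNCNC (Fgf12).
Dusp6 promoter: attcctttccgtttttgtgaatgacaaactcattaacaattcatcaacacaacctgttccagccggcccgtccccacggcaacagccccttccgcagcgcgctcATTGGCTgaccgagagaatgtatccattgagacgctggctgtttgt
Spry2 promoter: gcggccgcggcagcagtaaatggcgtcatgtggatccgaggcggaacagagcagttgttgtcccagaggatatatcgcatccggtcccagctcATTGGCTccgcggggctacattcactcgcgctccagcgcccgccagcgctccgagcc
Fgf12 promoter: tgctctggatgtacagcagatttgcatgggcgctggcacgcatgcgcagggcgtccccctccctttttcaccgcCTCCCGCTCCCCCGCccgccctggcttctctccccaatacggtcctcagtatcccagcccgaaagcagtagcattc
Dusp6 held 9 CpG dinucleotides, Spry2 16 and Fgf12 10 within their 150 bp. The CCAAT box was searched for after these sequences were seen, so its presence in both inhibitor promoters is a description. It lay in 2 of 21 promoter sites of the inhibitors (9.52%), 2 of 62 of the ligands (3.23%), 0 of 30 of the receptors and 4.19% of all 46681 promoter sites.

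The sequences of 4 distal sites are shown because 3 were the strongest distal site of their gene by the naming rule. The fourth was the strongest within 50 kb of the Fgfr2 start next to a distant one, and was chosen after its value was seen. The Spry1 site (chr3:37666841-37667010) is intergenic and 27.0 kb downstream of the start. The Fgf8 site (chr19:45747581-45747730) is intergenic, 4.74 kb upstream of Fgf8, and nearer to the start of Npm3, at 1894 bp. The Fgfr4 site (chr13:55190281-55190430) is intergenic, 37.7 kb downstream of the start of Fgfr4, and nearest to the start of Nsd1. The Fgfr2 site (chr7:130279461-130279610) lies in an intron of a long Fgfr2 transcript, 13.3 kb upstream of the Fgfr2 start next to the distant one. Capitals mark the WT1 consensus and the CTCF consensus AGGGGGCG in Spry1 and a longer degenerate CTCF consensus, added after values were seen, in Fgf8.
Spry1 distal: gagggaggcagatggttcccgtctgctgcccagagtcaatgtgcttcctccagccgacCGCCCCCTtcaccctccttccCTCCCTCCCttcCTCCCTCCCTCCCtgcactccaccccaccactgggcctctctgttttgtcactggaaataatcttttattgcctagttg
Fgf8 distal: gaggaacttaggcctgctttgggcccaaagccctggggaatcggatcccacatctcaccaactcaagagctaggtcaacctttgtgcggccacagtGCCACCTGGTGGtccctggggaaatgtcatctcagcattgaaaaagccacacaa
Fgfr4 distal: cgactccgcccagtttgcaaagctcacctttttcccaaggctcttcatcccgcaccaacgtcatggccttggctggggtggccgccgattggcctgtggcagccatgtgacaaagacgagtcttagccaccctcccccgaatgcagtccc
Fgfr2 distal: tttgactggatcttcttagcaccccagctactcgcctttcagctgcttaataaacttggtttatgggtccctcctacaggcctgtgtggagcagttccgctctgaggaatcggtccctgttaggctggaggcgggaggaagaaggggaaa
In the Spry1 site, 3 WT1 matches lie in a run of CTCCC repeats and overlap in part. None of the motifs searched was found in the Fgfr4 and Fgfr2 sites.

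Nearly all members had an open promoter, and the roles differed in how strong it was. A promoter peak in both replicates was found for 21 of 22 ligands, 5 of 5 receptors, 7 of 7 inhibitors and 2 of 2 adaptors, beside 71.8% of all protein-coding genes. The median promoter signal was 34.5 and 33.3 for ligands, 105 and 109 for receptors, 163 and 177 for inhibitors and 146 and 162 for adaptors. Over all genes with a promoter peak in both it was 95.4 and 105. Promoter signal was above that median in both replicates for 0 of 21 ligands, 3 of 5 receptors, 7 of 7 inhibitors and 2 of 2 adaptors, beside 47.6% of all genes with such a peak. The ligand Fgf20 was above it in replicate 1 (99.2 against 95.4) and just below it in replicate 2 (103.6 against 104.6).

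**Figure D1:**
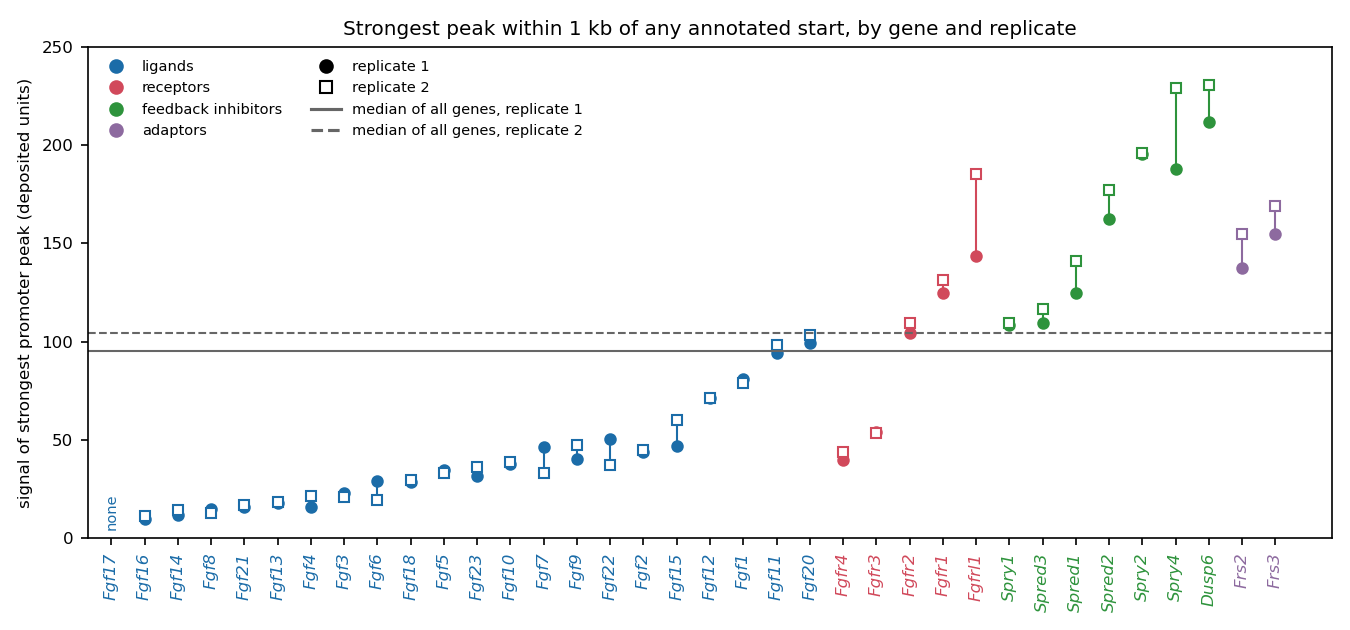
Signal of the strongest promoter peak (y axis, deposited units) of each gene (x axis), with replicate 1 as filled circles and replicate 2 as open squares, coloured by role, and the medians of all genes as grey lines. The 7 inhibitors and 2 adaptors lie above both lines and no ligand does, and the Fgfr2 value is from a peak at the promoter of Ctbp2.

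The highest ligand was Fgf20, at 99.2 and 104, and the lowest inhibitor was Spry1, at 108 and 109.5, so the ligands and inhibitors did not overlap in either replicate. This separation depended on how the promoter was defined. It was kept with the most 5' start alone and lost in each of the 3 other settings that could change it. With a 500 bp window the lowest inhibitor was Spred1, at 62.5 and 93.5, and 3 ligands in replicate 1 and 1 in replicate 2 reached it. With a 2 kb window Fgf18 was at 137 and 144, above Spry1, and 2 ligands in each replicate reached the lowest inhibitor. With starts of coding transcripts only, Spred3 was at 14.0 and 44.4, and 19 and 6 ligands reached it.

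The 3 Sprouty genes measured encode inhibitors of receptor tyrosine kinase signalling upstream of ERK. Spry2 had promoter signals of 195 and 196, nearly the same in both replicates. Spry4, on chromosome 18, had 188 and 229, which was the widest gap between replicates among the inhibitors. Spry1 had 108 and 109.5, just above the median gene, and was the lowest of the 3 by more than the spread between replicates. Its peak lies at chr3:37639781-37639930, 92 bp upstream of the start, and is also within 1 kb of the noncoding gene Gm42922.

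Dusp6, the phosphatase that removes the activating phosphates from ERK, had the highest promoter signal of all members, at 212 and 230.4 (mean 221 ± 13.1, SD, n = 2). That value stood at percentile 90.3 of all genes with a promoter peak. The Spred genes, which encode Sprouty-related inhibitors of Ras and Raf activation, followed in the order Spred2 (163 and 177), Spred1 (125 and 141) and Spred3 (109.6 and 116), with no overlap between neighbours. The Spred3 peak also lies within 1 kb of the start of Ggn, and at the start of its own coding transcript, 1764 bp away, the signal was 14.0 and 44.4.

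The adaptors bind FGF receptors and, once the receptors are activated, recruit Grb2 and Shp2. Frs2 had promoter signals of 138 and 155 from a peak at its most 5' start. Frs3 had 155 and 169 from a peak that also lies within 1 kb of the starts of Prickle4 and Gm21981. The adaptors lay inside the range of the inhibitors.

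Among receptor promoters, those of Fgfrl1, Fgfr1 and Fgfr2 were stronger than those of Fgfr3 and Fgfr4. Fgfrl1, a receptor that binds FGF but lacks a kinase domain and is needed for kidney formation in mice, had 143 and 186, the widest gap between replicates in the list (SD 29.8). Its peak, at chr5:108694061-108694210, lies at the second annotated start, 1848 bp from the most 5' one, where the signal was 51.6 and 64.5. Fgfr1, a receptor of the kidney mesenchyme, had 125 and 131 from a peak at chr8:25518681-25518830. This peak lies at a start 5105 bp from the most 5' one, the first in a group of nearby starts of 8 annotated transcripts. At the most 5' start of Fgfr1 the signal was 11.6 and 13.3. Fgfr3 had 53.8 and 53.3 and Fgfr4 had 39.7 and 43.6, both under the median gene and well below Fgfr1, Fgfr2 and Fgfrl1.

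Fgfr2, the receptor for Fgf7 and Fgf10 on the ureteric epithelium, needs care because of its annotation. A single transcript starts 2857 kb upstream of the next Fgfr2 start. The strongest peak by the rule, at 105 and 109, lies by that start at chr7:133124201-133124350 and within 1 kb of a start of Ctbp2, a transcriptional corepressor. At the next start, in a group of close starts of 5 transcripts, the signal was 103 and 107, so the value hardly differs. The distal sites do differ: 18 sites lie within 50 kb of the distant start and none of them has Fgfr2 as its nearest gene, whereas 24 lie within 50 kb of the next start. A start further downstream, shared by 13 coding transcripts and so by the most of any Fgfr2 start, had only 15.7 and 12.9. The receptor median was 105 and 109 by the rule and stayed within the spread between replicates without the distant transcript.

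Among the paracrine ligands, which act locally with heparan sulfate, Fgf20 stood highest. Fgf20 had promoter signals of 99.2 and 104, at percentile 50.8, and its peak at chr8:40307881-40308030 also lies within 1 kb of the start of Micu3 and in an exon of that gene. A second start 21.4 kb downstream had 43.8 and 33.5. Fgf9, the other ligand of nephron progenitors, had 40.4 and 47.2. Its 4 starts lie within 5960 bp and held 14 and 15 promoter peaks, with 27.5 to 43.2 as the mean signal of the 4 starts, so Fgf9 had many peaks of moderate height in place of a single strong one. The strongest Fgf9 peak was at the fourth start in replicate 1 and at the second in replicate 2.

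Fgf1, a ligand that binds all FGF receptors, had 80.8 and 79.0 and was the third highest ligand. Fgf2, of the same subfamily, had 43.9 and 44.6, from a peak at a start of a noncoding transcript 18.6 kb from the most 5' start, where the signal was 36.8 and 24.3. Fgf7, made by stroma and acting on epithelium, had 46.5 and 33.0. Fgf10 had 37.4 and 38.6 at the start of its coding transcript, and no peak at its most 5' start 44908 bp upstream. Of the same subfamily, Fgf22, known for its role at synapses, had 50.6 and 37.4, and Fgf3, known from the inner ear, had 22.9 and 20.9. The replicates of Fgf7 and Fgf22 overlapped each other's range, so those genes cannot be ordered.

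Fgf8, the ligand needed for nephron formation, had a low promoter signal, at 14.6 and 12.8, overlapping that of Fgf14 (11.8 and 14.2), which for Fgf8 is percentile 3.27 of genes with a promoter peak. Its relatives differed. Fgf18, a regulator of bone and cartilage, had 28.6 and 29.7. Fgf17, which acts in the midbrain and cerebellum, had no promoter peak in either replicate and was the only member analysed without one. Fgf16, of the Fgf9 subfamily and known from the heart, had the lowest signal of all, 9.66 and 11.4. In a further subfamily, Fgf4, a ligand of the early embryo, had 15.8 and 21.3. Fgf5, which ends the growth phase of hair, had 34.5 and 33.3, and Fgf6, known from muscle, had 29.2 and 19.6. The Fgf4 peak, with its centre 992 bp and 1012 bp from the start in the 2 replicates, lies at the edge of the window and its shared site also counts as a distal site.

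The endocrine ligands act at a distance through the coreceptors Klotho and beta-Klotho. Fgf15, the bile acid signal of the gut, had 47.0 and 60.2, Fgf23, the phosphate hormone of bone, had 31.6 and 36.2, and the metabolic hormone Fgf21 had 15.7 and 16.6. These 3 did not overlap. The intracellular members, which are not secreted and bind voltage-gated sodium channels, spread widely: Fgf11 had 94.2 and 98.2, Fgf12 71.2 and 71.4, Fgf13 17.7 and 18.3 and Fgf14 11.8 and 14.2. The Fgf11 value comes from a peak 661 bp and 681 bp inside the gene, and within 500 bp of its starts the mean signal was 12.7.

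Promoters rich in CpG are open in most tissues, so signal was also read against CpG content, measured as observed over expected CpG in 500 bp on each side of the most 5' start. Across quintiles of this measure, the share of all genes with a promoter peak in both replicates went from 19.2% through 53.0%, 89.7% and 97.9% to 99.0%. The median signal in replicate 1 went from 35.8 to 126. Of the inhibitors, 6 of 7 lay in the upper 2 quintiles, as did 3 of 5 receptors, 1 of 2 adaptors and 6 of 22 ligands. The roles therefore differ in CpG content as well as in signal, and the part of CpG content in the difference was not tested.

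**Figure D2:**
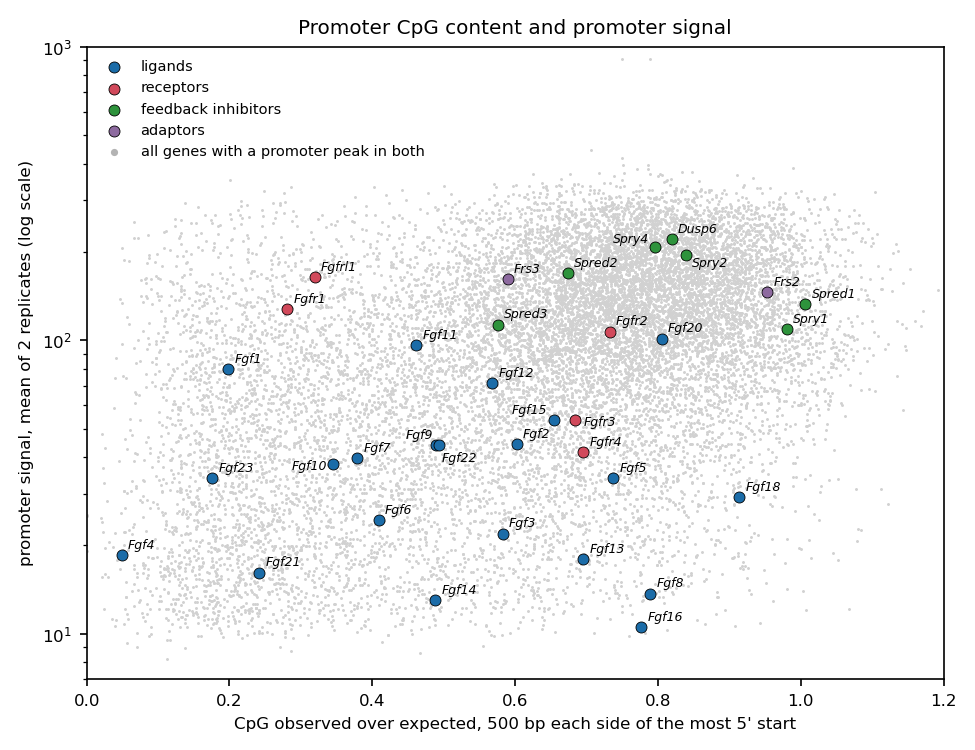
CpG observed over expected around the most 5' start (x axis) and promoter signal, mean of 2 replicates (y axis, log scale), for members coloured by role and for all genes with a promoter peak in both replicates in grey; 2 such genes lie above the axis. Fgf8, Fgf13, Fgf16 and Fgf18 lie in the lower part of the CpG-rich genes, while Fgfr1 and Fgfrl1 lie in the upper part of the CpG-poor ones.

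The 6 CpG-rich ligand promoters were below the middle of their class. Within their own quintile, Fgf16 stood at percentile 0.10, Fgf8 at 0.73, Fgf13 at 2.19, Fgf18 at 3.87, Fgf5 at 8.16 and Fgf20 at 31.8. The Fgf13 peak lies at a start 433635 bp from the one around which CpG was measured, where the signal was 17.2 and 13.6. The low place of Fgf18 depends on the 1 kb window, as its mean signal was 141 with a 2 kb window. Fgf13 and Fgf16 lie on the X chromosome, where the median promoter signal was 58.8 and 62.0, and both were below that as well. Within their quintile the inhibitors ranged more widely and mostly higher, with Dusp6 at 85.4, Spry4 at 83.2, Spry2 at 77.6, Spred2 at 71.0, Spred3 at 66.4, Spred1 at 49.5 and Spry1 at 36, the last near Fgf20. Fgfrl1 at 93.1 and Fgfr1 at 87.9 stood high among CpG-poor promoters, but their strongest peaks are not at the most 5' start around which CpG was measured.

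Distal sites were also more numerous near inhibitors and receptors than near ligands. The median number within 50 kb of the most 5' start was 7.5 for ligands, 16 for receptors, 20 for inhibitors and 8.5 for adaptors, against 6 for all genes (upper quartile 11). More sites than the median gene were found for 14 of 22 ligands, 5 of 5 receptors, 6 of 7 inhibitors and 1 of 2 adaptors, beside 46.6% of all genes. The counts overlapped between roles, from 0 to 27 in ligands, 9 to 24 in receptors and 5 to 27 in inhibitors. Taking each list alone, the median number of distal peaks was 10.5 and 10 for ligands, 21 and 19 for receptors and 30 and 28 for inhibitors.

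**Figure D3:**
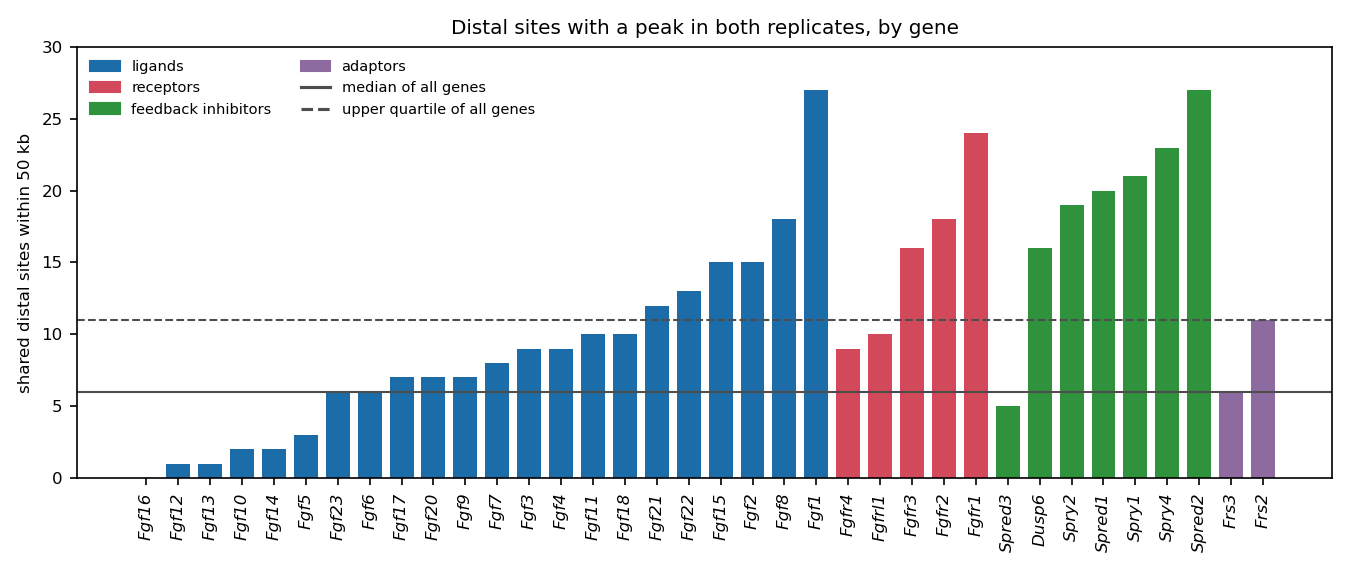
Number of shared distal sites within 50 kb of the most 5' start (y axis) for each gene (x axis), coloured by role, with the median (6) and upper quartile (11) of all genes as lines. Of the inhibitors all but Spred3 stand above the upper quartile, and Fgf1 with 27 is the highest ligand.

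Among the inhibitors, Spred2 had 27 distal sites, Spry4 23, Spry1 21, Spred1 20, Spry2 19, Dusp6 16 and Spred3 5. For Spry2, Spry4, Spred1 and Spred2 every one of these sites had the member as its nearest protein-coding gene, and for Dusp6 15 of 16 did. The strongest Spry4 site had 143 and 142, 30.3 kb upstream, in a noncoding gene. The strongest Spry1 site had 137 and 119.5, above the Spry1 promoter itself, and its next one, 2238 bp downstream of the start in an intron, had 95.6 and 96.0. Other strong sites were those of Spred2 (98.5 and 96.2, 3.78 kb upstream), Dusp6 (88.2 and 84.1, in an exon of the noncoding gene Gm34921) and Spry2 (78.2 and 73.5, 24.5 kb upstream). The strongest Spred1 site had 52.8 and 59.0, 1.51 kb inside the gene.

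Around Dusp6 the sites were clustered on both sides of the start. Sites at 1376 bp and 1086 bp upstream had 81.8 and 86.6, and 65.4 and 62.3. A site 22.7 kb downstream had 89.2 and 73.2, as strong within the spread as the strongest.

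Of the receptors, Fgfr1 had 24 distal sites, Fgfr2 18 by the rule, Fgfr3 16, Fgfrl1 10 and Fgfr4 9. All 24 of Fgfr1 had it as the nearest gene, and the strongest, at chr8:25543401-25543590 in an intron 29.8 kb downstream, had 106 and 95.3. The strongest site near the Fgfr2 start next to the distant one had 95.1 and 95.9, the second, 32.2 kb downstream in an intron, 87.6 and 73.2. The strongest Fgfr3 site had 69.5 and 59.9 and the strongest Fgfrl1 site 52.8 and 55.2. The strongest site of any receptor was near Fgfr4, at 202 and 226, or 214 ± 17.3 (SD, n = 2), which is far above the Fgfr4 promoter at 39.7 and 43.6, but it is nearest to the start of Nsd1, a histone methyltransferase gene. By the rule, the strongest Fgfr2 site had only 31.7 and 36.3 and is nearest to Ctbp2.

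**Figure D4:**
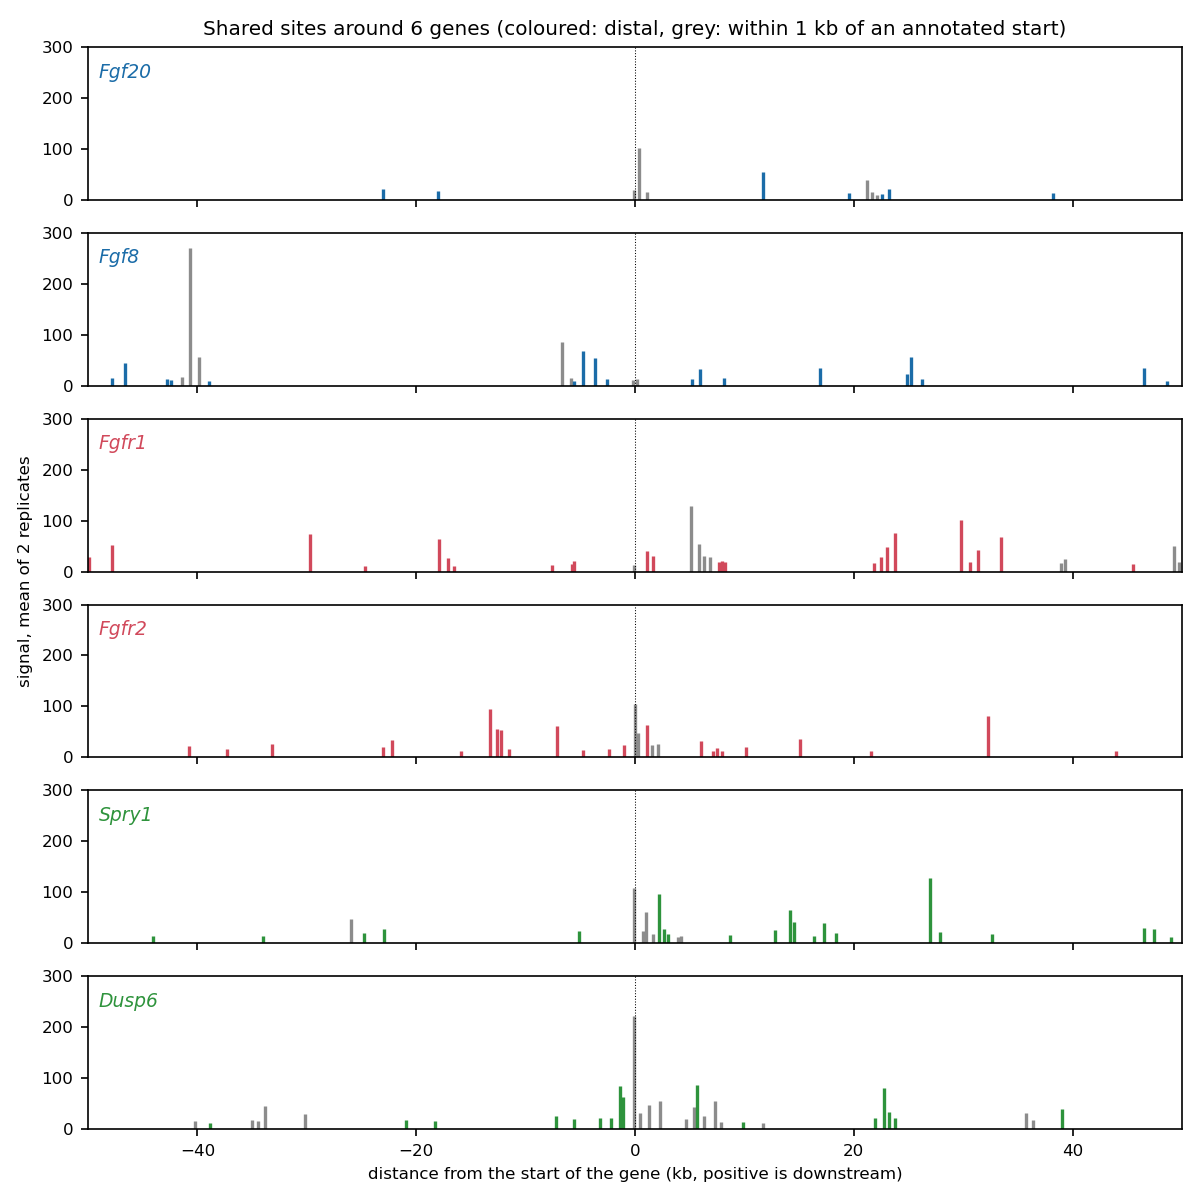
Shared sites around 6 genes by distance from the start of each gene (x axis, kb, positive is downstream; for Fgfr2 the start next to the distant transcript) and mean signal of 2 replicates (y axis). Coloured lines are distal sites and grey lines are sites within 1 kb of any annotated start; Fgf8 has its strongest grey sites at other genes' starts and almost nothing at its own, whereas Dusp6 has its highest site at its own start.

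Of the ligands, Fgf1 had the most distal sites, 27, of which 23 had Fgf1 as the nearest gene. Its strongest, 1103 bp upstream of the start and inside an intron of Arhgap26, had 120 and 124, above the promoter peak of Fgf1. Fgf8 followed with 18, Fgf2 and Fgf15 with 15, Fgf22 with 13 and Fgf21 with 12. The strongest Fgf8 site had 64.9 and 72.8, against 14.6 and 12.8 at its promoter, and 8 of its 18 sites had Fgf8 as the nearest gene. The ligands of nephron progenitors and ureteric growth had fewer: Fgf7 8, Fgf9 and Fgf20 7 each and Fgf10 2. The Fgf10 count is centred on its most 5' start, which had no peak and lies 44908 bp upstream of its coding start. Along the whole Fgf10 gene there were 8 distal sites. Within 50 kb, the strongest sites of these ligands had 30.2 and 25.9 for Fgf7, 26.7 and 28.5 for Fgf9, 55.2 and 55.5 for Fgf20 and 20.3 and 13.4 for Fgf10. The Fgf20 site lies in its own intron, 11.7 kb downstream of the start.

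Of the remaining ligands, Fgf11 and Fgf18 had 10 distal sites, Fgf3 and Fgf4 9 and Fgf17 7, more than the median gene. Fgf6 and Fgf23 had 6, Fgf5 3, Fgf14 2, Fgf12 and Fgf13 1 and Fgf16 0. Fgf12, Fgf13 and Fgf14 are long genes, of 593, 506 and 699 kb, and held 2.19, 0.40 and 1.00 distal sites per 100 kb along their whole length. Over the 226 protein-coding genes at least as long as Fgf13 the median was 3.48, with quartiles of 1.58 and 7.66, so Fgf12 lay inside that range and Fgf13 and Fgf14 below it. This reference was added after values were seen. On the X chromosome the median gene had 1 distal site, so Fgf13 (1) was at that median and Fgf16 (0) below it.

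Several of the strongest sites near ligands lie at other genes. The strongest of any ligand, at chr7:45589261-45589430 within 50 kb of Fgf21, had 207 and 239 but lies in an exon of Bcat2. The strongest near Fgf15 had 166 and 196 and lies 1750 bp from the start of Ccnd1, the cyclin D1 gene. These sites were singled out after their values were seen. Only 1 of 12 sites of Fgf21, 2 of 15 of Fgf15, 1 of 10 of Fgf11 and 0 of 13 of Fgf22 had the ligand as nearest gene. The third strongest, of Fgf18, had 137 and 144, 1135 bp upstream of Fgf18 itself and just beyond the promoter window.

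The balance between promoter and distal signal, as counted with the 1 kb and 50 kb windows, differed by role. Promoter signal, which was lowest in ligands, enters this comparison, so the count is not separate from it. Among genes with both a promoter peak and a distal site, the strongest distal site exceeded the promoter in mean signal for 12 of 20 ligands, 2 of 5 receptors (Fgfr3 and Fgfr4), 1 of 7 inhibitors (Spry1) and 0 of 2 adaptors, beside 31.8% of all such genes. The sites of Fgf1 and Fgf18 lie just beyond the promoter window of their own start. That of Fgf21 lies in an exon of Bcat2, and those of Fgf8, Fgf15, Fgf22 and Fgfr4 are nearest to other genes. How far the difference between roles rests on such sites was not tested. The median strongest distal site was 49.8 for ligands, 64.7 for receptors, 86.2 for inhibitors and 45.2 for adaptors, against 57.0 over all genes. Signals of promoters and distal sites were compared as deposited, and this count was added after values were seen.

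In all, 398 distinct distal sites lay near members. Of these 173 were intergenic (43.5%), 114 in an intron of the member (28.6%), 47 in an intron of another gene, 41 in an exon and 23 in a noncoding gene. The nearest coding start was that of a member for 272 (68.3%). Some ligands are neighbours and share sites. Fgf3 and Fgf4 are 9.28 kb apart and Fgf4 and Fgf15 49.2 kb, so 4 sites counted for Fgf3 and Fgf4, 3 for all of Fgf3, Fgf4 and Fgf15, and 2 for Fgf4 and Fgf15. Fgf6 and Fgf23, 57.3 kb apart, shared 3. In addition, a ligand and an inhibitor are neighbours in 2 places, Fgf2 with Spry1 at 292 kb and Fgf1 with Spry4 at 328 kb. These pairs lie too far apart for their 50 kb windows to meet, so they could not share a site by this count.

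Exact matches to consensus motifs were counted in the central 150 bp of distal sites on both strands. A match describes the sequence and does not show that the factor binds there. WT1, a transcription factor of nephron progenitors and podocytes (CTCCCNCNC), was matched in 25 of 173 ligand sites (14.5%), 12 of 77 receptor sites (15.6%), 10 of 131 inhibitor sites (7.63%) and 1 of 17 adaptor sites, against 7.78% of all 151068 distal sites. The receptor sites include those around the distant Fgfr2 start. AP-1 (TGANTCA) was matched in 19 of 398 member sites (4.77%) against 6.90%. The ETS consensus (CCGGAAGT), bound by factors downstream of FGF signalling, was in 3 member sites (0.754%) against 0.389%, and TCF/LEF (ATCAAAG) in 9 (2.26%) against 2.58%. TEAD (ACATTCCA) was in 7 (1.76%) against 1.96%, and HNF1 (GTTAATNAT) in 0 of 398 against 0.975%. The short CTCF motif (AGGGGGCG) was in 9 (2.26%) against 1.45%. The longer CTCF consensus, added after values were seen, was in 10 of 173 ligand sites (5.78%), 1 of 77 receptor sites and 0 of 131 inhibitor sites, against 3.88% of all; 2 of the 10 were among the strongest sites of Fgf8. Overlap between motifs was allowed, and these shares are descriptions without a test.

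Promoters of other pathway genes were open in most cases, with a wide range of signal. From a list of 43 genes in 5 classes, 42 had a promoter peak in both replicates (71.8% of all genes) and 30 of the 42 were above the median gene in both (47.6% of all genes with such a peak). Their median signal was 134 and 141, between those of the receptors and the inhibitors. In CpG content, 33 of the 43 lay in the upper 2 quintiles, beside 8775 of all 21938 genes. The part of CpG content in these counts was not tested. All 3 ETS target genes were above the median of all genes in both replicates, the measure used here for each class. The highest were Etv5, at 262 and 289, and Etv4, at 180 and 189, transcription factors induced by FGF. In the Ras-ERK cascade 13 of 16 were above, led by the adaptor Shc1 (269 and 297) and the kinase Map2k1 (211 and 248). Of the other regulators 9 of 12 were above, led by the ERK phosphatase Dusp7 (270.4 and 283) and the ubiquitin ligase Cbl (174 and 214). In heparan sulfate synthesis and editing 5 of 10 were above, close to the share of all genes, led by Hs2st1 (255 and 283) and Glce (180.4 and 209), which modify the sugar chain. Of the coreceptors of endocrine FGFs, Kl, the Klotho gene, had 33.3 and 26.7, the lowest mean of the 42, near Hs6st2 at 35.9 and 32.9 and Dusp9 at 33.1 and 42.4, which were named after their values were seen. Klb, the beta-Klotho gene, had 10.9 in replicate 1 and no promoter peak in replicate 2.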

How the data were processed

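DNase-seq libraries of newborn kidney (2 biological replicates) were sequenced with 36-nt reads and aligned to mm10, per the file headers. The authors deposited 1 narrowPeak list per replicate, not pooled. The deposited signal of each peak was used as given; its scaling for depth is not stated. The deposited −log10 p of each peak was not used. The sources used here name no aligner, peak caller, threshold or read depth, so no interval from counts was possible.

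Promoter peaks, distal sites, CpG content and motif matches were computed with Python 3.11.15, numpy 2.4.6, pandas 2.3.3 and pysam 0.24.0 from GENCODE M21 starts and the mm10 genome. Shared sites merge peaks overlapping by at least 1 bp. On simulated peaks placed at known positions, every planted promoter peak was recovered, and counts within 50 kb equalled a direct count for every gene checked. Recovery of shared sites and the split into promoter and distal sites were not checked in this way. SDs are over 2 replicates, which measure only the spread between these samples.

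Every member was to be accounted for, with values for receptors, inhibitors, adaptors and ligands with a promoter peak, the strongest distal site of genes with many sites or a kidney role, and from each pathway class the 2 highest genes and those without a promoter peak. Members and lists were chosen with earlier results of these data known. Alternatives were the promoter and distal windows, peak strength, overlap, coding starts and leaving out a replicate; the most 5' start and the distant Fgfr2 transcript were added after the data were seen. A marker gene and a motif from these lists are not reported here.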

Additional observations from a re-analysis of the deposited data

How the results depend on the processing

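The 1 group and the peak lists without depth limit the values to descriptions. The number of members with a promoter peak kept within 1.5 times its value in every setting tried; for ligands it ranged from 16 (upper 50% of peaks) to 21. The median promoter signal of ligands moved from 33.9 to 31.3 with the most 5' start alone and to 36.8 with a 2 kb window, and that of receptors from 107 to 52.5 with the most 5' start, where Fgfr1 and Fgfrl1 are weak. Distal counts depended on the window and the overlap. For ligands, receptors, inhibitors and adaptors the medians were 3, 6, 12 and 5.0 within 25 kb (all genes 3), 17, 19, 41 and 19.5 within 100 kb (13), and 4, 9, 12 and 4.5 with the upper 50% of peaks (3). With an overlap of 50% of each peak they were 6, 15, 15 and 7.5 (5). With a single list in place of both, they ranged from 10 to 10.5, 19 to 21, 28 to 30 and 12 to 14 (8). Inhibitors kept the highest median in these settings, except that receptors equalled it with the 50% overlap. Of the 35 members with a promoter signal, 13 moved by more than the spread between replicates in at least 1 setting and 3 lost their peak in one (Fgf10 with the most 5' start, Fgf4 and Fgf16 with a 500 bp window). All 36 distal counts moved in at least 1 setting. No paired analysis was possible because there is only 1 group.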
